A study of Mus musculus with 4 samples.

Results

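Cycling CD8+ T cells from the BM of transplanted mice were compared by the size of the clone they belong to. Members were chosen by 2 deposited calls, the name of the cycling cluster (Tex_Cycling) and the T cell receptor (TCR) call of the cell, and by clone size, which was counted here as the cells of all clusters with the same TCR call in the same library. Of 11754 cells, 1928 were in the cycling cluster and 995 of these had a TCR call. A total of 608 cells belonged to clones of 6 or more cells (called expanded here), 248 were the single cell of their clone (called single), and 139 cells of clones of 2 to 5 cells were in neither class. Clone size rests on TCR sequences and not on the levels of the genes tested, so the 166 genes of the TCR loci were left out of all totals and tests, and clone size itself is no finding.

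Each of the 4 libraries came from 5 pooled recipients on a C57BL/6 background (WT or CRBN transgenic, the latter with a modified cereblon that lets lenalidomide degrade Ikaros and Aiolos), transplanted with BM and T cells of donors of the matching genotype. Recipients had received αTIGIT or isotype control (cIg) from the day of transplantation and lenalidomide or vehicle from day 14, which gave the 4 groups αTIGIT, lenalidomide, αTIGIT with lenalidomide, and cIg, and CD8+ T cells were sorted from BM at day 28. In the transplant model of the study, recipients carry the mouse myeloma Vk12653. No label ties a library number to a treatment, so expanded and single cells were only compared within each library and nothing is said of treatments. The model of the 4 libraries carries the library as a block, and its p-values measure the spread of the within-library ratio over 4 libraries of different treatment, not over replicates of 1 group. Some clonotypes enter the expanded class of more than 1 library, as given below, so the 4 ratios rest in part on the same clonotypes.

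When a T cell recognizes its antigen, it divides and its progeny keep its TCR, so that cells with the same TCR nucleotides are counted as 1 clone. Naive and central memory cells express receptors for homing and survival such as CCR7 and the IL-7 receptor with the transcription factors TCF-1 and SATB1. Chronic antigen drives inhibitory receptors such as PD-1, TIGIT and LAG-3 together with TOX, a program called exhaustion. A cluster that is defined by the cell cycle can hold cells of several such states, since DNA replication and mitosis use the same genes in all of them.

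The expanded class held 238, 66, 123 and 181 cells in libraries 1 to 4, and the single class 99, 55, 38 and 56. The expanded cells carried 21, 15, 14 and 29 TCR calls. The call with the most cycling cells took 16.4%, 19.7%, 35.8% and 15.5% of the expanded class of its library. In the sequences of these leading calls below, lower case marks bases that run on from the germline V gene or into the J gene. Capitals mark the bases found in neither. In TRB chains the capitals can include bases of a D gene, which was not aligned here. The sequences are shown because clone size was counted on these letters.
Library 1, TRA of the leading call (TRAV16N, TRAJ49): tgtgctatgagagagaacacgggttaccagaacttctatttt
Library 1, TRB of the leading call (TRBV1, TRBJ2-1): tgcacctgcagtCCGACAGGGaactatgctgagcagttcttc
Library 1, TRA of the second call (TRAV12-2, TRAJ27): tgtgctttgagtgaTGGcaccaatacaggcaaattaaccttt
Library 1, the other TRB of the second call (TRBV1, TRBJ1-4): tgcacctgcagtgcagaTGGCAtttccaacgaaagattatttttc
Library 2, TRA of the leading call (TRAV9-1, TRAJ45): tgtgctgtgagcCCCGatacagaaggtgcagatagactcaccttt
Library 2, TRB of the leading call (TRBV17, TRBJ2-7): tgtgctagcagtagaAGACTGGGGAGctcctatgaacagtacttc
Library 3, TRA of the leading call (TRAV9-1, TRAJ23): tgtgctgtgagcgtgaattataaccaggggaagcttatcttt
Library 3, TRB of the leading call (TRBV26, TRBJ2-1): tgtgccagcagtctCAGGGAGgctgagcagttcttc
Library 4, TRA of the leading call (TRAV9-4, TRAJ50): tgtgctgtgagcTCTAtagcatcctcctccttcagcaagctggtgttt
Library 4, TRB of the leading call (TRBV16, TRBJ2-7): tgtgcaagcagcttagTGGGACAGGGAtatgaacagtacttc
The V genes of the TRB chains lie on chromosome 6 of GRCm38 (GENCODE M21), with Trbv1 at 40891229 to 40891885, Trbv16 at 41151740 to 41152230, Trbv17 at 41163062 to 41163556 and Trbv26 at 41227505 to 41227993, all on the plus strand. The leading TRA chain of library 1 joined V to J with 0 bases between them, as did that of library 3, while the TRB chains held 7 to 11 such bases in the leading calls.

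Some calls of libraries 1, 3 and 4 shared a TRB chain with another call of their library. The second call of library 1 carried both TRB chains printed above for that library, 1 of which was the TRB chain of the leading call. In all, 119 of the 238 expanded cycling cells of library 1, or 50%, carried either of these TRB chains, under 5 calls, and 54 cells carried both. Clonotypes were also shared between libraries. Of the 75 clonotypes of the expanded cycling cells, 20 were found in more than 1 library, such as the leading call of library 1, with 170, 19 and 1 cells of all clusters in libraries 1 to 3, and that of library 2, with 110 cells in library 2 and 14 in library 3. Such clonotypes held 162 of the 238 expanded cycling cells in library 1, 47 of 66 in library 2, 3 of 123 in library 3 and 4 of 181 in library 4. Of all cells, 56 barcode sequences were found in more than 1 library, and 0 of them came with the same TCR in both. What the sharing of chains or clonotypes stems from, and whether calls that share a chain are separate clones, was not tested.

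Expanded cells had fewer UMIs (unique molecular identifiers, each 1 captured RNA molecule) than single cells. The median single cell had 11106, 13126, 11405 and 14445.5 UMIs in libraries 1 to 4 and the median expanded cell 9703, 12429, 9227 and 12076, lower in 4 of 4 libraries with a mean difference of -1662 UMIs (exact sign permutation, 2-sided, p = 0.125, the smallest that 4 libraries can give). Among cells with exactly 1 TRA and 1 TRB chain the average difference was -1342. The mean per cell was lower in 3 of 4 libraries. At least 2 TRB chains were called in 52 of 248 single cells (20.97%, Clopper-Pearson 95% interval 16.1% to 26.6%) and in 73 of 608 expanded cells (12.01%, 9.53% to 14.9%). By library the shares were 19.2%, 12.7%, 21.1% and 32.1% of single and 22.7%, 0%, 0.813% and 9.94% of expanded cells, so library 1 went the other way. Its 54 expanded cells with at least 2 TRB chains were the 54 that carried both TRB chains printed above for library 1. The 0 of 66 expanded cells of library 2 allow a share of up to 5.44% (Clopper-Pearson). In all, 22 single cells carried a TRB chain that an expanded clone of their library also had. No doublets were removed by the study's stated filters or here. Cycling cells without a TCR call were deeper still, with a median of 17063 UMIs against 11392 with a call, and the share of cells with a call fell from 71.5% to 75.3% in the shallowest of 3 equal groups of cells by UMIs in each library to 23.8% to 39.5% in the deepest. The part of these differences in the results below was not tested beyond the settings named there. Intervals cover counting error only.

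Across genes, levels are given as CPM, the UMIs of a gene per 1e+06 UMIs outside the TCR loci, summed over the cells of 1 class in 1 library, and fold changes are expanded over single. The 8 sums held 470603 to 2528497 UMIs. Of 7958 genes with at least 10 UMIs in at least 4 of the 8 sums, 430 differed at an adjusted p below 0.05 (5.4% of genes tested), 208 of them higher in expanded cells (2.61%) and 222 lower (2.79%). The median log2 fold change of all genes tested was 0.00. Of the 430 genes, 400 had the same direction in 4 of 4 libraries. A change above 2-fold was found for 58 of the 208 and for 114 of the 222. Log2 fold changes below are the within-library ratio of these 4 libraries (n = 4), except where pooled counts or a single library are named. The SE was derived from the log2 fold change and the F statistic of the edgeR test, so it adds nothing to the p. Of the 222 genes called lower, 19 reached the minimum of 10 UMIs in no more than 1 expanded sum, and 25 of the 208 called higher did so in no more than 1 single sum, so these passed the filter through 1 class. Such a gene was tested only because it was high in that class, so its UMIs are given below in place of a p. The counts moved with the setting. DESeq2 called 187 genes, the fit without library 1 called 192 and without library 4 252, 253 were called in cells of exactly 1 TRA and 1 TRB, and 76 with each cell thinned to 2500 UMIs. Without the clonotypes found in another library the count was 278, and 408 of 408 calls that were still tested kept their direction. Of 113 called genes that are named here, 33 kept the call in each of 24 alternatives that tested them, among them Pdcd1, Lag3, Tigit, Tox, Tox2, Ccl3, Gzmk, Prf1, Il7r, Tcf7, Satb1, Fcer1g and Ighm.

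**Figure D1:**
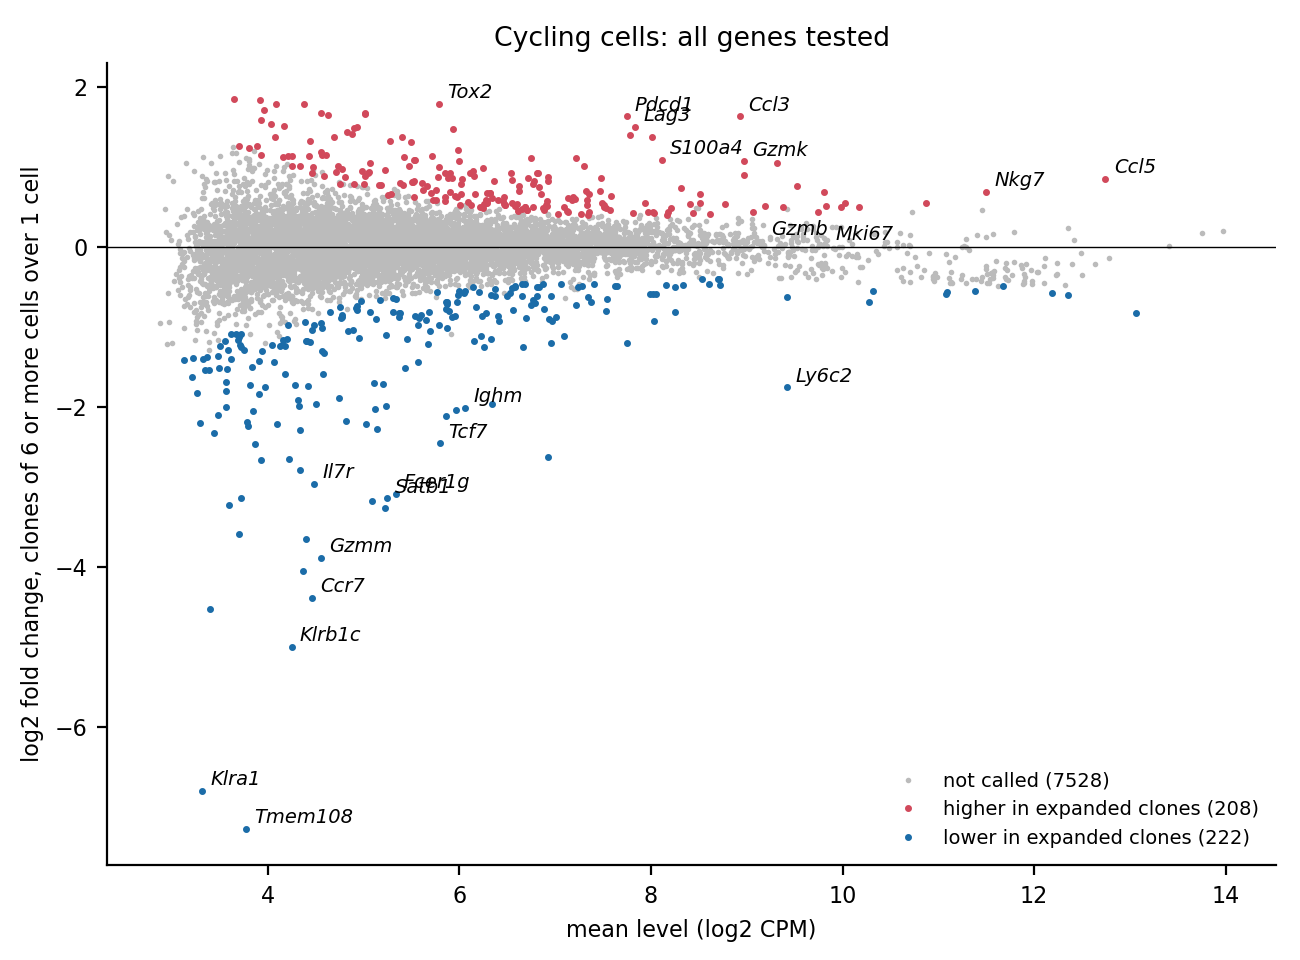
Each point is 1 of the 7958 genes tested in cycling cells, with its mean level (log2 CPM) on the x axis and the log2 fold change of expanded over single clones on the y axis. The 208 genes called higher lie between 0 and 2 on the log2 scale, the 222 called lower extend well below -2, and the 2 lowest points, Tmem108 and Klra1, rest on 1 UMI each in expanded cells.

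Several inhibitory receptors were higher in expanded cycling cells. Of 14 members tested, 7 rose (Pdcd1, Tigit, Lag3, Havcr2, Ctla4, Entpd1 and Cd200r1), 1 fell (Cd160) and 6 did not pass the test, with a median log2 fold change of 0.98. The log2 fold changes of the list ran from -0.93, in a member that was not called, to 1.65. An unadjusted edgeR p below 0.05 was found for 8 higher and 2 lower. Havcr2, Cd200r1 and the uncalled Cd200 passed the filter through the expanded class, and of the other 11 members 5 rose and 1 fell, with a median of 0.02. Pdcd1 encodes PD-1 (ENSMUSG00000026285; chromosome 1, 94038305 to 94052553, minus strand). Its level was 128, 62.5, 65.9 and 123 CPM in the single cells of libraries 1 to 4 and 377, 303, 214 and 323 CPM in the expanded cells. Every expanded value lay above every single value, and the log2 fold change was 1.64 ± 0.14 (SE; edgeR adjusted p = 4.04e-08). Such separation upward was seen in 4.42% of genes tested, and downward in 3.02%. Lag3, an inhibitory receptor for MHC class II, had 146, 103, 61.6 and 124 CPM in single and 403, 364, 234 and 284 CPM in expanded cells, a log2 fold change of 1.50 ± 0.13 (SE; edgeR adjusted p = 5.27e-08). Tigit, the receptor that the antibody of the study blocks, had 141, 66.7, 82.9 and 153 CPM in single and 382, 298, 182 and 340.4 CPM in expanded cells, 1.40 ± 0.15 (SE; edgeR adjusted p = 7.58e-07). The values of Pdcd1, Lag3 and Tigit were higher in each library, and those of library 3 were the lowest of the expanded class for all of them. Havcr2, which encodes TIM-3, was low in single cells with 22.7, 5.56, 10.6 and 8.76 CPM and reached 47.5, 38.03, 42.1 and 24.4 CPM in expanded cells (1.49, from 263 UMIs in expanded and 42 in single cells). Cd160, a receptor of memory and NK cells, went the other way, from 232, 156, 310.2 and 218 to 217, 163, 191 and 112 CPM (-0.49 ± 0.14 SE, edgeR adjusted p = 0.0497), its groups overlapped, and 15 alternatives ended the call, DESeq2 among them. The call was lost for Cd160 without library 1, 3 or 4 (-0.62 to -0.32).

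Of the transcription factors of exhaustion, 7 of 12 tested rose and 0 fell at the threshold, with a median of 0.80. Their log2 fold changes ran from -1.11, in a member that was not called, to 1.79. An unadjusted edgeR p below 0.05 was found for 9 higher and 1 lower. Tox (ENSMUSG00000041272; chromosome 4, 6686353 to 6991557, minus strand), the regulator of the exhausted state, had 179, 109.8, 119 and 125 CPM in single and 422, 379, 316 and 320.0 CPM in expanded cells of libraries 1 to 4. The expanded values exceeded all single values, with a log2 fold change of 1.37 ± 0.13 (SE; edgeR adjusted p = 1.32e-07). Its relative Tox2 showed the same direction at a lower level, with 32.3, 11.1, 6.37 and 27.5 CPM against 94.9, 76.1, 31.2 and 84.9 CPM. The expanded value of library 3 fell just below the single value of library 1, so the groups overlapped, while the ratio was above 1 in 4 of 4 libraries (1.79 ± 0.20 SE, edgeR adjusted p = 2.62e-06). Nr4a2, an orphan receptor induced by TCR signals, rose by 1.11 on the log2 scale, Batf by 1.01, Bhlhe40 by 0.83, Prdm1 by 0.78 and Nfatc1 by 0.44 (edgeR adjusted p from 7.18e-05 to 0.0436). Of the effector transcription factors, Zeb2 (1.01), Rbpj (0.83), Ikzf3 (0.44) and Runx3 (0.41) rose among 9 tested, and DESeq2 called 0 of the 9 (edgeR adjusted p from 0.00702 to 0.0418). When 1 library was left out, the call was lost, at log2 fold changes of the same sign, for Prdm1 without library 1 or 4 (0.75), Nfatc1 without library 1, 2 or 4 (0.31 to 0.53), Zeb2 without library 1 or 3 (0.88 to 0.96), Rbpj without library 1 (0.71), Ikzf3 without library 1 or 2 (0.38 to 0.43) and Runx3 without library 1, 2 or 4 (0.35 to 0.42). Ikzf2 (Helios) did not pass the test, with 104, 138, 157 and 95.1 CPM in single and 115, 74.9, 148 and 79.2 CPM in expanded cells.

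**Figure D2:**
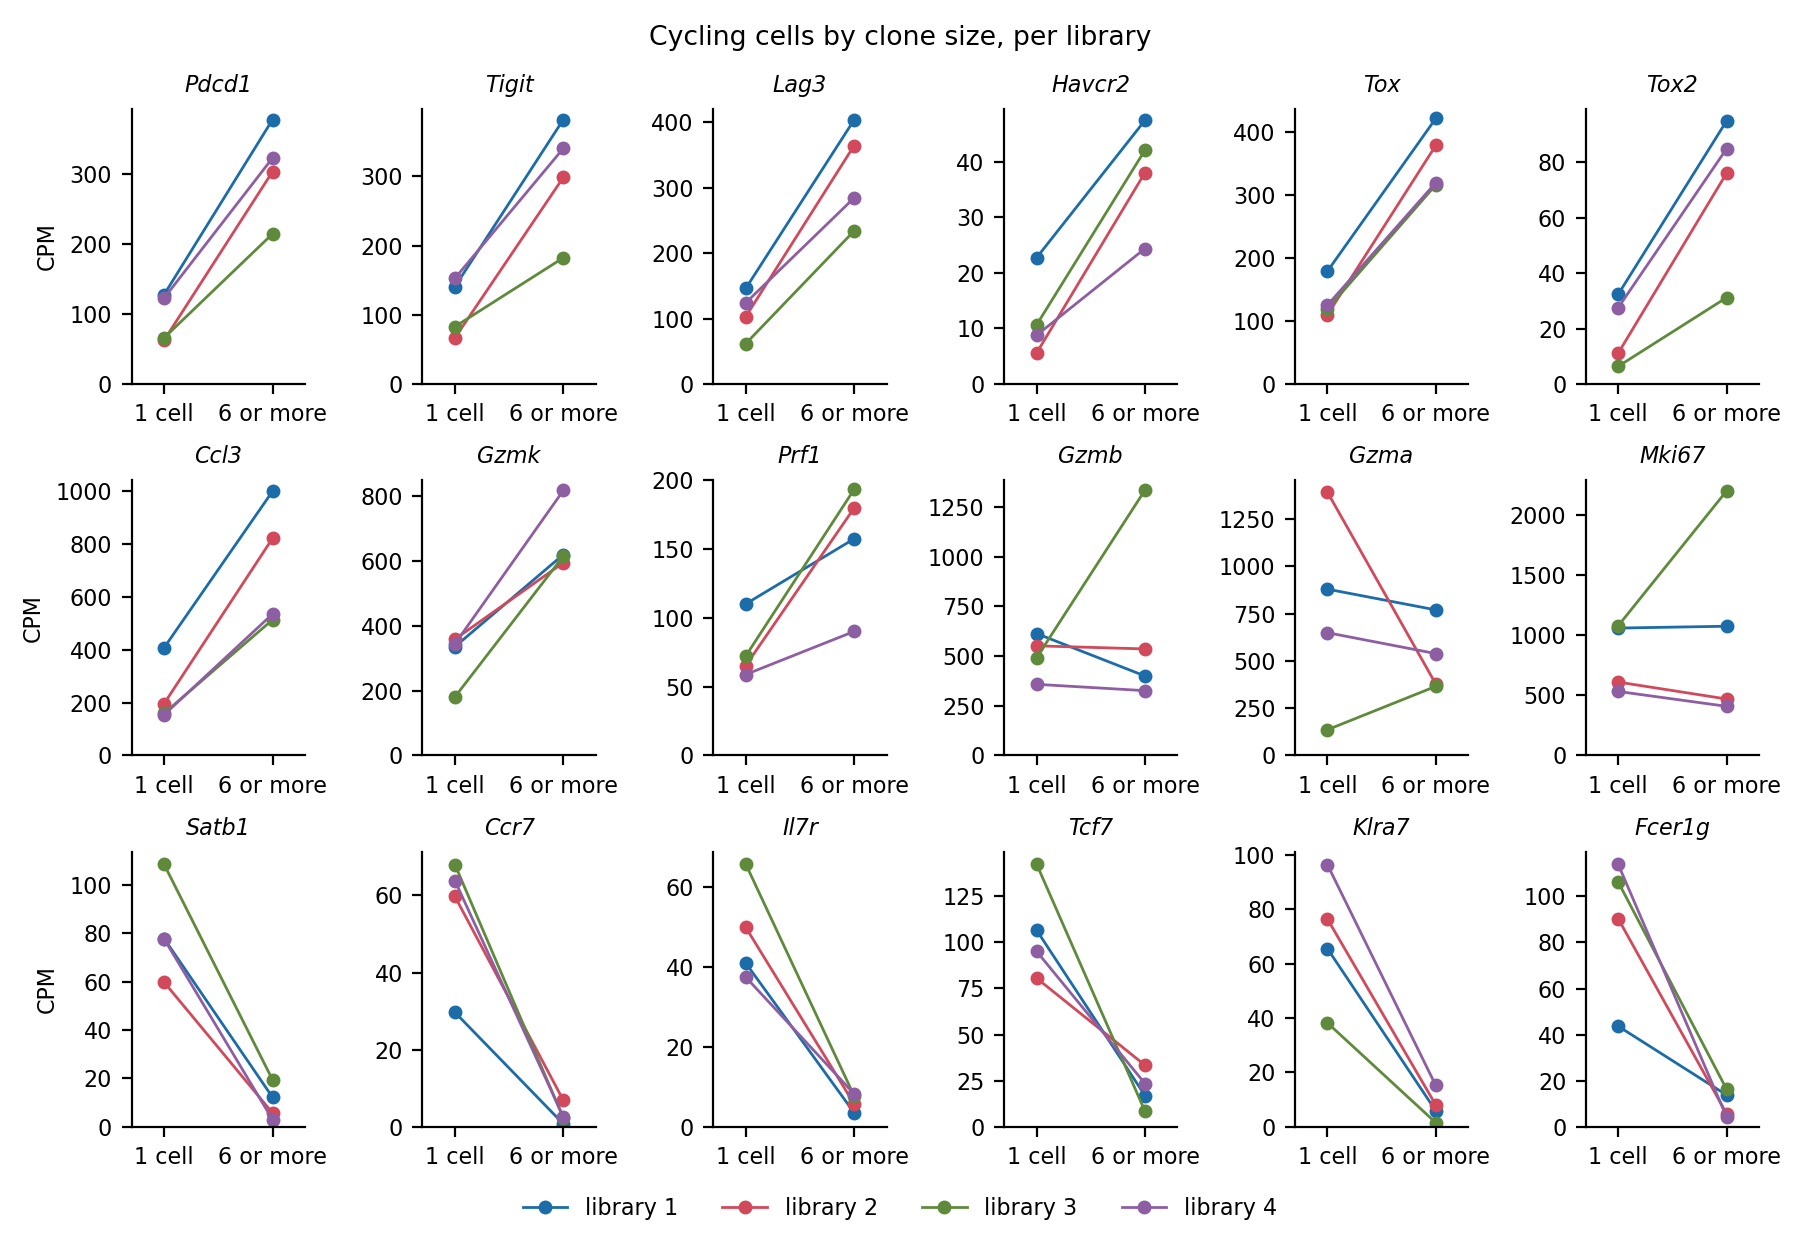
Levels of 18 genes in CPM (y axis, from 0) in the single (1 cell) and expanded (6 or more) classes of cycling cells, with 1 line per library. Lines of the inhibitory receptors, Tox, Tox2, Ccl3, Gzmk and Prf1 rise in 4 of 4 libraries and those of the bottom row fall in 4 of 4, whereas Gzma, Gzmb and Mki67 go both ways.

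Several genes of the stemness and memory list fell in expanded cells. Of 15 stemness and memory genes tested, 10 fell and 0 rose, with a median of -1.01. Ccr7 and Bach2 passed the filter through the single class, and 8 of the other 13 fell, with a median of -0.92. Il7r (ENSMUSG00000003882; chromosome 15, 9505788 to 9530176, minus strand), the receptor for the survival cytokine IL-7, fell from 41.1, 50.01, 65.9 and 37.5 CPM in single cells to 3.56, 5.76, 7.79 and 8.27 CPM in expanded cells of libraries 1 to 4 (-2.95 ± 0.26 SE, edgeR adjusted p = 7.56e-08). Tcf7, which encodes TCF-1, fell from 107, 80.6, 142 and 95.1 to 17.01, 33.4, 8.57 and 23.5 CPM, -2.45 ± 0.25 (SE; edgeR adjusted p = 4.50e-07). The groups did not overlap for Il7r or Tcf7, nor for Satb1, a chromatin organizer of naive T cells, which fell by 3.14 on the log2 scale from 77.8, 59.7, 108 and 77.6 to 12.3, 5.76, 19.5 and 3.05 CPM. Ccr7, the chemokine receptor for lymph node homing, had 29.7, 59.7, 68.00 and 63.8 CPM in single and 0.791, 6.91, 2.34 and 2.61 CPM in expanded cells. On the pooled counts, 17 and 160 UMIs, the log2 ratio was -4.39, a description without a test. Dapl1 (-3.26, edgeR adjusted p = 7.71e-05), Id3 (-1.98, edgeR adjusted p = 0.000244), Bach2 (-1.54, from 39 UMIs in expanded and 48 in single cells), Klf3 (-1.01, edgeR adjusted p = 0.000458), Lef1 (-0.92, edgeR adjusted p = 0.00117) and Slamf6 (-0.55, edgeR adjusted p = 0.0397) were the other members that fell. The edgeR call was lost for Bach2 without library 3 or 4 (-1.29 to -1.22) and Slamf6 without library 1 or 2 (-0.60 to -0.48). For scale, Ccr7 was at 26.4 CPM in all Tcm cells and 226 CPM in all Tn cells, and Il7r at 25.6 and 396 CPM. Single cycling cells of all libraries had 51.1 CPM of Ccr7 and 45.9 CPM of Il7r, above Tcm. For Tcf7 (103 against 160 CPM in Tcm) and Satb1 (78.2 against 131 CPM) single cycling cells lay below Tcm.

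Receptors of NK cells and innate-like T cells also fell. Of 14 members tested, 10 fell and 1 rose (Cd7, 0.76, edgeR adjusted p = 0.000502), with a median of -1.96. Klra1, Klra6 and Klrb1c passed the filter through the single class, and of the other 11 members 7 fell and 1 rose, with a median of -0.90. Klra1 (ENSMUSG00000079853; chromosome 6, 130363917 to 130386874, minus strand), an inhibitory Ly49 receptor for MHC class I, had 22.7, 18.1, 25.5 and 32.5 CPM in single cells, which came from 77 UMIs, and 1 UMI in all 608 expanded cells. On the pooled counts the log2 ratio was -7.42, which rests on that 1 UMI. The other members of this family, Klra6 (-4.04, from 21 UMIs in expanded and 151 in single cells), Klra7 (-3.18, edgeR adjusted p = 9.56e-09) and Klra3 (-2.18, edgeR adjusted p = 7.25e-07), moved the same way, and their sequences are near copies, so reads may be split among them in ways that were not tested. Klrb1c, which encodes NK1.1, had 56.8, 29.2, 78.6 and 27.5 CPM in single and 0.791, 3.46, 1.56 and 1.31 CPM in expanded cells. On the pooled counts, 10 and 145 UMIs, the log2 ratio was -5.01, a description without a test. The signaling adaptors Fcer1g and Tyrobp, which couple such receptors to activation, had 43.7, 90.3, 106 and 114 and 43.7, 13.9, 25.5 and 55.1 CPM in single cells. In expanded cells they had 13.8, 5.76, 16.4 and 4.35 and 6.72, 6.91, 9.35 and 3.48 CPM, log2 fold changes of -3.08 (edgeR adjusted p = 2.07e-07) and -2.64 (edgeR adjusted p = 1.44e-05). Klrc1, Klrc2 and Klre1, receptors of the NKG2 group and its relatives, also fell, by 0.90, 1.75 and 0.62 on the log2 scale. Leaving out libraries in turn ended the call of Klrc1 without library 4 (-0.48) and Klre1 without library 1 or 4 (-0.63 to -0.43). In all Tcm cells Klra7 was at 318 CPM, Klrb1c at 243 and Fcer1g at 264 CPM, above the single cycling cells in each case. The NK markers Ncr1, Klrb1b, Eomes and Fcgr3 summed to 131 to 184 CPM in single and 161 to 213 CPM in expanded cells, higher in expanded cells in 4 of 4 libraries. The 1 member tested was not called by edgeR or DESeq2 and had an unadjusted p below 0.05. Eomes is also in the list of exhaustion transcription factors and Fcgr3 in the macrophage list, so this sum is not specific to NK cells.

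Among the genes of cytotoxic granules the direction depended on the gene. Of 13 tested, 4 rose (Gzmk, Prf1, Nkg7 and Ctsd), 3 fell (Gzmm, Ctla2a and Ctsw) and 6 did not pass, with a median of 0.08. Gzmk, the granzyme of pre-exhausted cells, had 336, 358, 181 and 344 CPM in single and 619.7, 595, 615 and 818 CPM in expanded cells, 1.07 ± 0.13 (SE; edgeR adjusted p = 1.26e-05). Prf1, which encodes perforin, went from 110.1, 65.3, 72.2 and 58.8 to 157, 179.8, 193 and 90.1 CPM (0.88 ± 0.15 SE, edgeR adjusted p = 0.000719), higher in 4 of 4 libraries with overlap between libraries. Gzmm, a granzyme of NK and innate-like cells, fell from 71.6, 29.2, 19.1 and 73.8 to 1.98, 3.46, 8.57 and 3.05 CPM. It passed the filter through the single class, and on the pooled counts, 26 and 171 UMIs, its log2 ratio was -3.87. Gzmb (ENSMUSG00000015437; chromosome 14, 56258838 to 56262260, minus strand) did not pass the test (0.08 ± 0.19 SE, edgeR adjusted p = 0.902). Its values were 613, 552, 491 and 358 CPM in single and 399.8, 536, 1334 and 326 CPM in expanded cells, higher in expanded cells in library 3 and lower in libraries 1, 2 and 4. Gzma had 879.8, 1393, 136 and 649.6 CPM in single and 770.0, 378, 366 and 539 CPM in expanded cells and did not pass either (-0.38, edgeR adjusted p = 0.54). Library 2 had the largest difference and library 3 was the only one of 4 with a higher expanded value. Of the called granule genes, the call was lost for Nkg7 without library 1 (0.72), Ctsd without library 1, 2 or 4 (0.43 to 0.50) and Ctsw without library 1, 2 or 4 (-0.44 to -0.35).

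Chemokines and death ligands were mostly higher. Of 9 tested, 6 rose (Ccl3, Ccl4, Ccl5, Ifng, Fasl and Tnfsf10) and 2 fell (Tnf and Xcl1), with a median of 0.68. Ccl3, a chemokine that T cells secrete on TCR stimulation, had 407, 196, 159 and 154 CPM in single and 998, 821, 513 and 535 CPM in expanded cells. The groups did not overlap and the log2 fold change was 1.63 ± 0.14 (SE; edgeR adjusted p = 3.63e-08). Ccl5 had 5589, 4071, 2911 and 6779 and 8561, 9892, 8123 and 8200.1 CPM (0.85, edgeR adjusted p = 0.00325). Ifng was at 89.99, 43.1, 70.1 and 60.1 CPM and 123, 127, 197 and 89.7 CPM (0.86 ± 0.16 SE, edgeR adjusted p = 0.00171). Tnf fell from 27.1, 25.01, 95.6 and 25.03 to 15.03, 12.7, 28.8 and 3.05 CPM (-1.59, edgeR adjusted p = 0.00049), and Xcl1, which attracts cross-presenting dendritic cells, from 107, 172, 93.5 and 330.4 to 98.9, 96.8, 33.5 and 72.3 CPM (-1.19, edgeR adjusted p = 0.00105). In fits that left out 1 library, the call was lost for Ccl4 without library 2 or 4 (0.54 to 1.06) and Tnfsf10 without library 1 or 2 (0.60 to 0.74). Il2, Il10 and Csf1 did not reach the minimum for a test, with 6, 8 and 49 UMIs in all expanded cells and 10, 0 and 4 in all single cells.

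Signals of the TCR and of activation did not move as 1 group. The TCR signaling genes Rgs16 (1.48, edgeR adjusted p = 0.000143), Fyn (0.66, edgeR adjusted p = 0.000856) and Rgs1 (0.52, edgeR adjusted p = 0.0293) rose among 15 tested, as did Tnfrsf9 (4-1BB, 1.12, edgeR adjusted p = 8.33e-05) and Il10ra (0.53, edgeR adjusted p = 0.0249) among 14 costimulatory and cytokine receptors, of which Il2rg, at -0.39, fell just inside the threshold. Of 13 immediate early genes 5 fell (Fos, Jun, Junb, Zfp36 and Btg2) and Ier3 rose (1.38, from 217 UMIs in expanded and 34 in single cells). Fos had 84.8, 56.96, 157 and 165 CPM in single and 51.4, 46.1, 56.9 and 57.9 CPM in expanded cells (-1.14, edgeR adjusted p = 0.000123). Cd3e, Cd3g and Cd8a, which mark the sorted cells and entered the study's filter on cells, each rose by 0.50 on the log2 scale (edgeR adjusted p = 0.0205, 0.0184 and 0.0133). Homing receptors were split, with Cxcr6 (0.87, edgeR adjusted p = 5.80e-05), Cx3cr1 (1.02, edgeR adjusted p = 0.00263) and Itga4 (0.52, edgeR adjusted p = 0.0251) higher and Cxcr3 (-0.62, edgeR adjusted p = 0.0388) and Cd69 (-0.66, edgeR adjusted p = 0.00264) lower among 14 tested. S100a4, a calcium-binding protein of effector cells, rose from 147, 136, 272 and 105 to 237, 345, 707 and 254 CPM (1.09, edgeR adjusted p = 5.02e-06), S100a11 by 0.68 on the same log2 scale, and the survival genes Bcl2a1b, Bcl2a1d and Bax by 1.13, 0.77 and 0.46. Of 15 glycolysis genes Slc16a3 rose (1.13, from 150 UMIs in expanded and 29 in single cells) and Pdk1 fell (-1.13, edgeR adjusted p = 0.0351). When 1 library was left out, the calls of several of these genes were lost, with the direction kept. Among receptors and adhesion genes these were Cd3e without library 1, 2 or 4 (0.41 to 0.52), Cd3g without library 1, 2 or 4 (0.42 to 0.52), Cd8a without library 1, 2 or 4 (0.42 to 0.55), Il10ra without library 2 (0.42), Il2rg without library 1, 2 or 4 (-0.47 to -0.33), Itga4 without library 1 or 4 (0.51 to 0.58), Cxcr3 without library 1, 2 or 4 (-0.58 to -0.46) and Cd69 without library 1 or 4 (-0.59 to -0.55). Among the rest they were Rgs1 without library 1 or 4 (0.54 to 0.58), Junb without library 1 or 4 (-0.47 to -0.45), Btg2 without library 1, 2 or 4 (-0.50 to -0.40), Ier3 without library 4 (1.05), Bcl2a1d without library 1, 2 or 4 (0.56 to 0.99), Bax without library 1, 2 or 4 (0.29 to 0.57), Slc16a3 without library 2, 3 or 4 (0.91 to 1.09) and Pdk1 without library 1, 2, 3 or 4 (-1.38 to -0.90). Of 5 lenalidomide target genes, Ikzf3, which encodes Aiolos, was called higher.

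Interferon genes fell in part and library 3 stood apart in them. Of 29 tested, 7 fell and 0 rose, with a median of -0.33. Ly6c2, an interferon-induced surface antigen of memory cells, had 858, 1107, 809.6 and 866 CPM in single cells and 163, 317, 1329 and 97.1 CPM in expanded cells (-1.75 ± 0.34 SE, edgeR adjusted p = 0.00224). It was lower in expanded cells in libraries 1, 2 and 4 and higher in library 3. Igtp (interferon list) and the chemokine receptor Cxcr3 had the same split, with log2 ratios above 0 in library 3 alone, and Cd226, which encodes the activating partner of TIGIT, did not pass the test, with 107, 84.7, 89.2 and 92.6 CPM in single and 145, 65.7, 302 and 48.3 CPM in expanded cells. Usp18 (-1.72, edgeR adjusted p = 0.00117), Ifi208 (-0.88, edgeR adjusted p = 0.00159), Ifi213 (-0.87, edgeR adjusted p = 0.00383), Slfn1 (-0.75, edgeR adjusted p = 0.00668) and Bst2 (-0.46, edgeR adjusted p = 0.0388) were the other members that fell. Calls that ended in fits with 1 library less were those of Igtp without library 1, 2 or 4 (-0.56 to -0.45), Usp18 without library 1 (-1.27), Ifi208 without library 1 (-0.68), Ifi213 without library 1 (-0.79), Slfn1 without library 1 or 4 (-0.71 to -0.56) and Bst2 without library 1 or 2 (-0.42 to -0.33).

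Few cell cycle genes were called by clone size within the cycling cluster. Both classes were taken from this cluster, so the choice of cells limits how far their cycle genes can differ. Of 38 S phase genes tested 1 was called (Rpa2, 0.42, edgeR adjusted p = 0.0498) and of 48 G2/M genes 3 were called, all higher, with log2 fold changes of 0.53 for Cenpe, 0.42 for Ccnb2 and 0.41 for Cenpa (edgeR adjusted p = 0.0459, 0.0282 and 0.0472). DESeq2 called 0 genes of both lists. The median of the G2/M list was 0.19 and that of the S phase list lay within rounding of 0. An unadjusted p below 0.05 was found for 12 of 48 G2/M and 4 of 38 S phase genes, all higher. Over all genes it was found for 1217 of 7958, in either direction. The cell cycle calls lost in fits of 3 libraries were those of Rpa2 without library 1, 2 or 4 (0.28 to 0.42), Cenpe without library 1, 3 or 4 (0.29 to 0.60), Ccnb2 without library 1 or 4 (0.38 to 0.43) and Cenpa without library 1 or 4 (0.32 to 0.43). Mki67, which encodes the proliferation marker Ki-67, had 1061, 611, 1079 and 533 CPM in single and 1076, 470.2, 2203 and 409 CPM in expanded cells, 0.02 ± 0.16 (SE; edgeR adjusted p = 0.977). Mcm5, a subunit of the replicative helicase, did not pass either (-0.08, edgeR adjusted p = 0.826). The summed G2/M list was 10524 to 12471 CPM in single and 10843 to 18569.7 CPM in expanded cells, higher in libraries 1, 3 and 4 and lower in library 2. Of 17 MHC class I and immunoproteasome genes, edgeR and DESeq2 called 0, with an unadjusted p below 0.05 for 3 higher and 1 lower. Of 81 cytosolic ribosomal protein genes tested, edgeR called 7 and DESeq2 13, all lower, and the median was -0.37. An unadjusted edgeR p below 0.05 was found for 63, all lower. In 4 of 4 libraries 58 were lower, and the share of all genes lower in 4 of 4 was not computed. Of 13 mitochondrial genes, edgeR and DESeq2 called 0, with an unadjusted p below 0.05 for 8 that were lower and a median of -0.27. Without TMM scaling the median of all genes was 0.06.

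**Figure D3:**
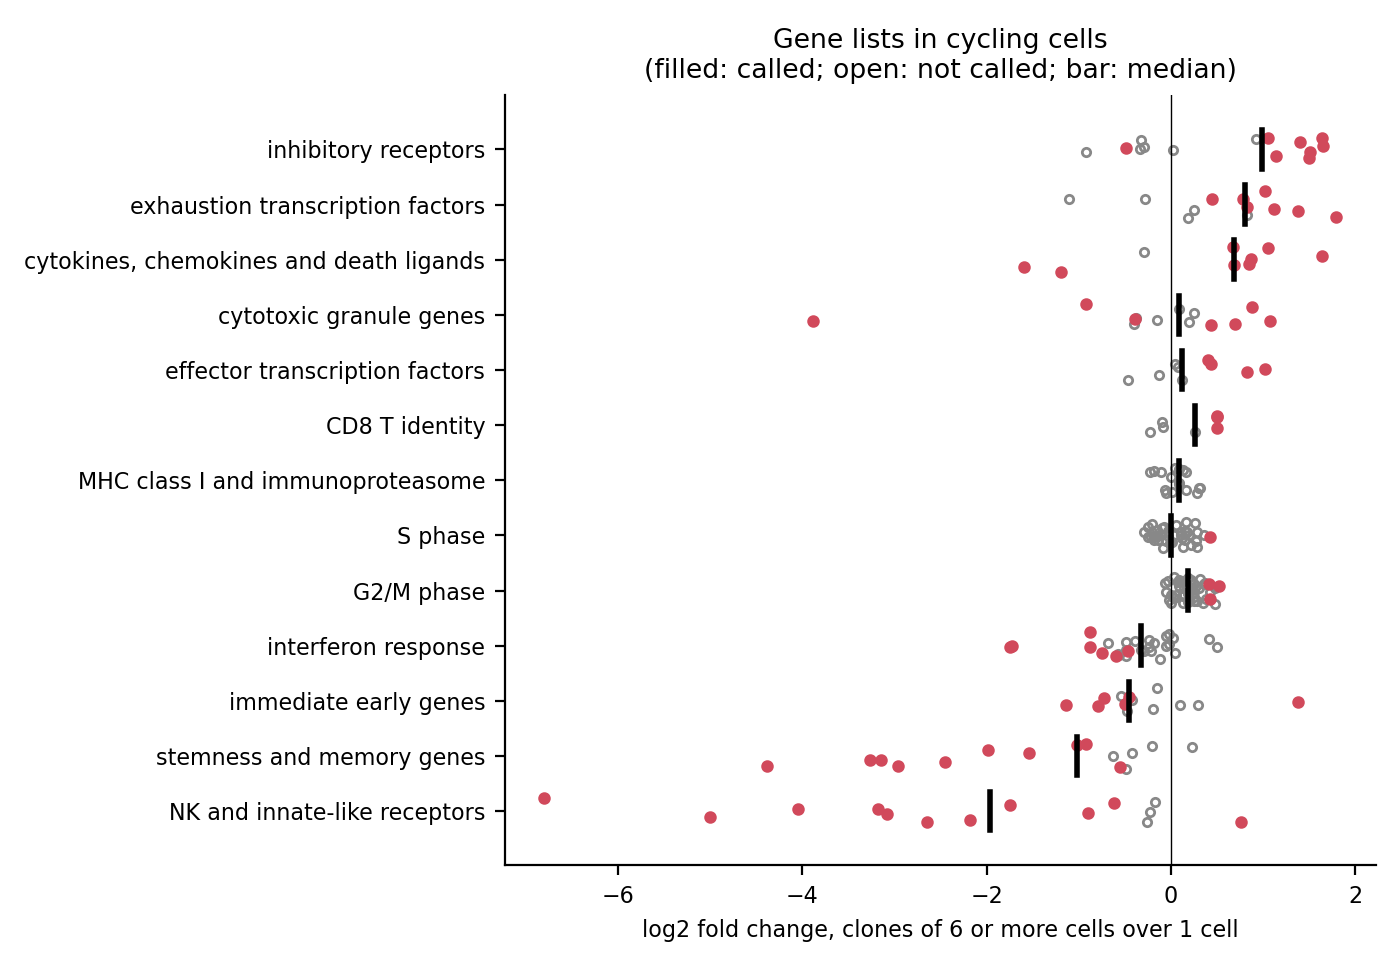
Log2 fold change of expanded over single cycling cells (x axis) for each tested gene of 13 lists, filled where called, with a bar at the median of the list. Inhibitory receptors and exhaustion factors have medians of 0.98 (0.02 without 3 members that passed the filter through 1 class) and 0.80, memory and NK receptor genes reach far to the left, and the 38 S phase and 48 G2/M genes stay between -0.29 and 0.53.

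The genes with the largest rises that no list held were at low levels. Rnf43, an E3 ligase that limits Wnt receptors, had 5.24, 1.39, 4.25 and 3.75 CPM in single and 13.8, 14.98, 14.8 and 15.2 CPM in expanded cells (1.85, from 102 UMIs in expanded and 12 in single cells). On the log2 scale Sdcbp2 (1.84, from 130 UMIs in expanded and 15 in single cells), Ociad2 (1.79, 145 and 18) and Car5b (1.79, 186 and 22) followed. Then came Ncf1 (1.72, 128 and 18), 2900026A02Rik (1.68), Trps1 (1.67, 289 and 41), Cela1 (1.59, 128 and 18), Ryk (1.51, 151 and 22) and Slc22a15 (1.50). Except for 2900026A02Rik and Slc22a15, these genes and Rnf43 passed the filter through the expanded class. The expanded values of 2900026A02Rik and Slc22a15 lay above all single ones. Fits that left out 1 library ended the calls of Sdcbp2 without library 4 (1.51), Car5b without library 1 (1.25), 2900026A02Rik without library 1 (1.55), Cela1 without library 1 or 4 (1.46 to 1.71) and Ryk without library 1 (1.42). Among the falls, Tmem108 had 40.2, 22.2, 44.6 and 32.5 CPM in single cells, from 109 UMIs, and 1 UMI in all expanded cells, a pooled log2 ratio of -7.92. Treml2, a receptor of the TREM family, had 76 UMIs against 7. Nsg2 (-3.65, from 26 UMIs in expanded and 147 in single cells) and Aff3 (-3.58, 17 and 90) fell too. Tnfsf8 (-3.22, 21 and 78) and Tnfsf14 (-3.14, 24 and 87), the last encoding LIGHT, completed the 15 largest falls with the genes given above. Like Tmem108 and Treml2, Nsg2, Aff3, Tnfsf8 and Tnfsf14 passed the filter through the single class.

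Transcripts of other cells moved with the classes in both directions. Igkc, the immunoglobulin light chain of plasma and B cells, had 15.7, 4.17, 8.50 and 15.02 CPM in single and 24.9, 33.4, 17.9 and 80.1 CPM in expanded cells (1.67 ± 0.30 SE, edgeR adjusted p = 0.000939). Ighm, the heavy chain of IgM, had 96.98, 147, 91.4 and 119 CPM in single and 20.6, 43.8, 7.02 and 47.5 CPM in expanded cells (-2.01 ± 0.21 SE, edgeR adjusted p = 9.64e-07). Leaving out 1 library ended the call of Igkc without library 4 (1.22). Of 17 plasma and B cell markers, 16 were in the table and 3 were tested, and their sum was 147 to 238 CPM in single and 104 to 196 CPM in expanded cells. The macrophage and MHC class II list, with 3 of 15 tested and 0 called by edgeR or DESeq2 (1 at an unadjusted p below 0.05), summed to 93.5 to 114 and 118 to 144 CPM, the erythroid list, with 1 of 8 tested, to 12.7 to 39.3 and 9.35 to 61.8 CPM, and the neutrophil and progenitor list, with 0 of 11 tested, to 2.78 to 7.51 and 7.40 to 19.6 CPM. Cd4, Foxp3 and Zbtb7b together did not exceed 4.25 CPM in any sum, and the markers of invariant and gamma-delta T cells 2.78 CPM. Without the cells in the highest 5% of any of 4 of these lists, 331 genes were called and 423 of 423 calls that were still tested kept their direction.

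The levels were then followed over clone size without a test. Among cells of clones of 1, 2 to 5, 6 to 20 and 21 or more cells there were 248, 139, 163 and 445 cycling cells. Pdcd1 was 128, 62.5, 65.9 and 123 CPM in clones of 1 cell of libraries 1 to 4 and already 270.4, 218, 171 and 249 CPM in clones of 2 to 5 cells. It was 254, 269.6, 270.2 and 326 CPM in clones of 6 to 20 cells and 391, 346, 190.4 and 321 CPM in clones of 21 or more. The step from 1 cell to 2 to 5 cells was upward in 4 of 4 libraries, and the last step was upward in libraries 1 and 2 and downward in 3 and 4. Gzmk was highest in clones of 2 to 5 cells in libraries 1, 2 and 3 and in clones of 6 to 20 cells in library 4, with 319.7 CPM over all libraries in clones of 1 cell and 777, 689 and 678 CPM in the larger classes. Ccl3 was higher in each larger class in library 2 alone. The last step was downward in libraries 1 and 3, and the first step was level in library 4 (154 and 152 CPM). The sums over all libraries were 257, 332, 622 and 776 CPM. Tcf7 went from 103 to 29.8, 27.9 and 16.5 CPM and Ccr7 from 51.1 to 3.17, 4.22 and 1.77 CPM. Mcm5 stayed between 225 and 264 CPM. Just outside and inside the limit, the 21 cycling cells of clones of 5 cells had 345 CPM of Pdcd1, 413 of Tox and 14.6 of Tcf7, and the 18 cells of clones of 6 cells had 312, 349.7 and 4.73 CPM, the values of Tcf7 resting on 3 and 1 UMIs.

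**Figure D4:**
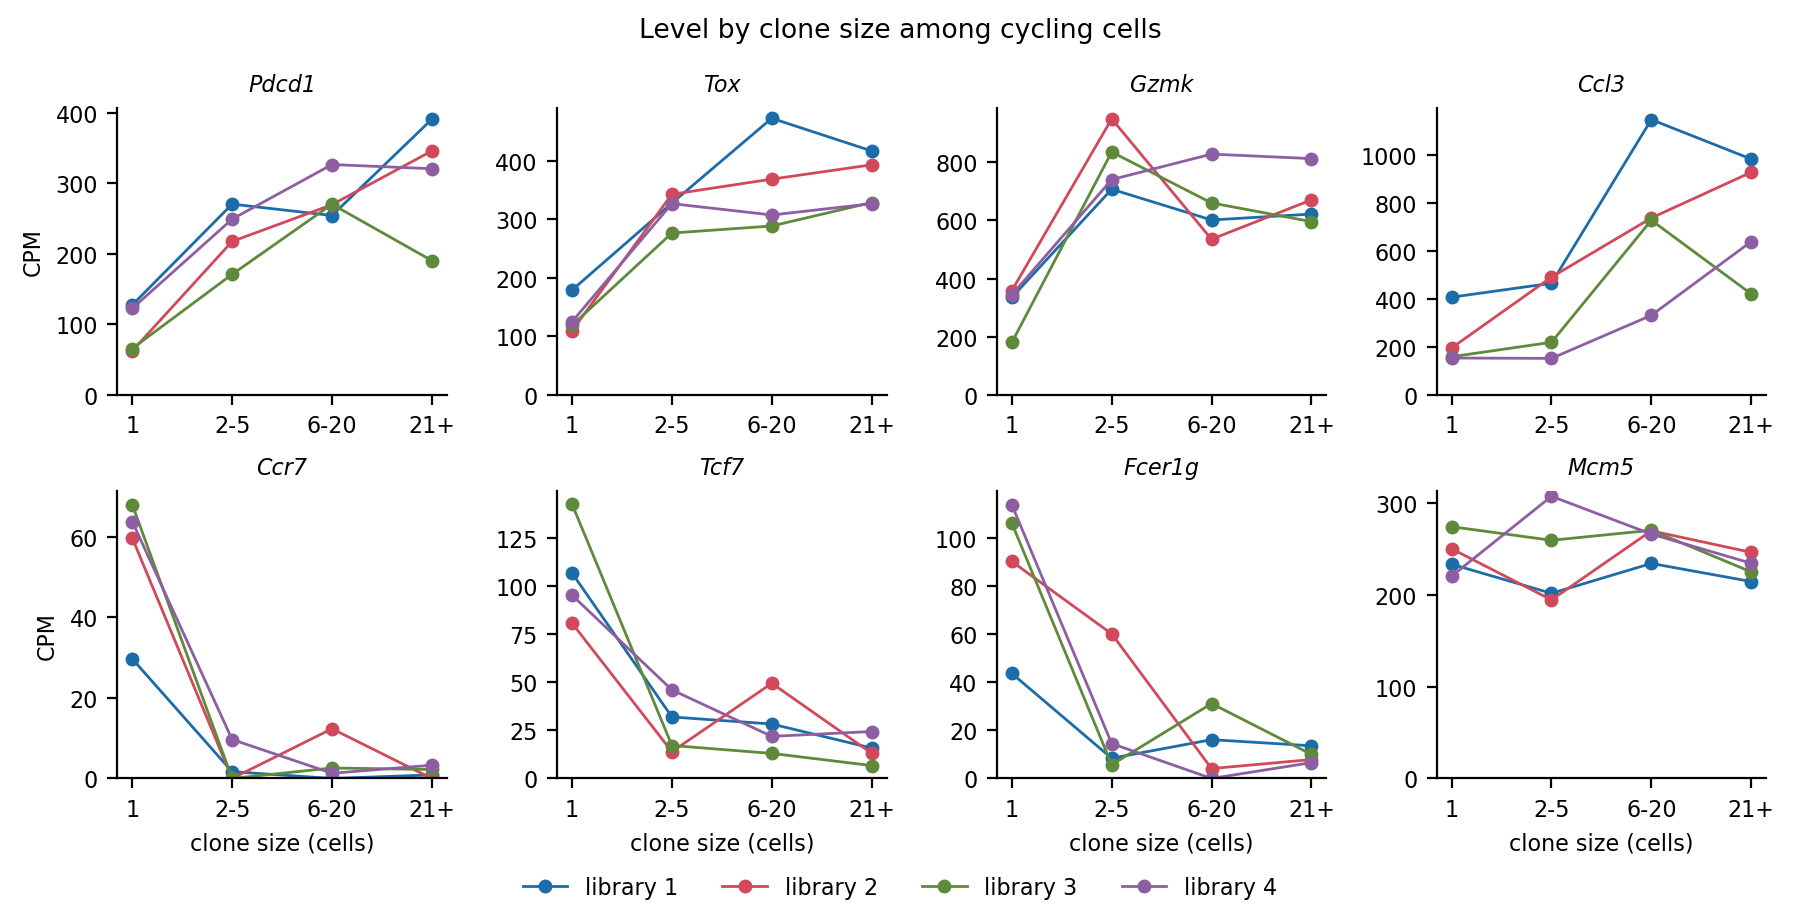
Levels of 8 genes in CPM (y axis, from 0) against clone size in 4 classes (x axis) among cycling cells, with 1 line per library. Pdcd1, Tox and Gzmk are higher in clones of 2 to 5 cells than in clones of 1 cell in all 4 libraries, Ccr7, Tcf7 and Fcer1g are lower there in all 4, and Mcm5 shows no common order.

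Levels of a class can come from all of its cells or from a part. Each cell was thinned to 2500 UMIs and scored for any UMI of 3 memory genes (Ccr7, Il7r and Tcf7) and of 4 exhaustion genes (Pdcd1, Tigit, Lag3 and Tox), which were chosen after their values were seen. The name memory follows the gene list, since Ccr7 and Il7r were lower in all Tcm cells than in single cycling cells. Of the single cells, 16.9% (12.5% to 22.2%) had only memory genes, 38.7% (32.6% to 45.1%) only exhaustion genes, 12.5% (8.65% to 17.3%) both, and 31.9% (26.1% to 38.05%) neither. Of the expanded cells, 1.32% (0.570% to 2.58%) had only memory genes, 82.4% (79.1% to 85.3%) only exhaustion genes, 5.43% (3.77% to 7.54%) both and 10.9% (8.50% to 13.6%) neither. The share with only exhaustion genes was 28.9% to 46.4% over libraries in single cells and 75.1% to 88.7% in expanded cells, with no overlap, and clones of 2 to 5 cells had 76.5% to 85.2%. As a background, 15.6% of Tn cells had any of the exhaustion genes and 10.7% of TIM-3+ Tex cells any of the memory genes, where expanded cells had 6.74% and single cells 29.4%, so the share of expanded cells did not exceed the level in TIM-3+ Tex. Their median depths before thinning were 7834, 8434, 11038.5 and 12259.5 UMIs. Without thinning, 46.4% of single and 15.3% of expanded cells had both. Among cells with exactly 1 TRA and 1 TRB chain the single class had 7.74% with both, 18.1% with only memory and 36.8% with only exhaustion genes. Gzmb, which did not differ in the test, was seen in 43.1% (36.9% to 49.6%) of single and 50.5% (46.4% to 54.5%) of expanded cells.

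**Figure D5:**
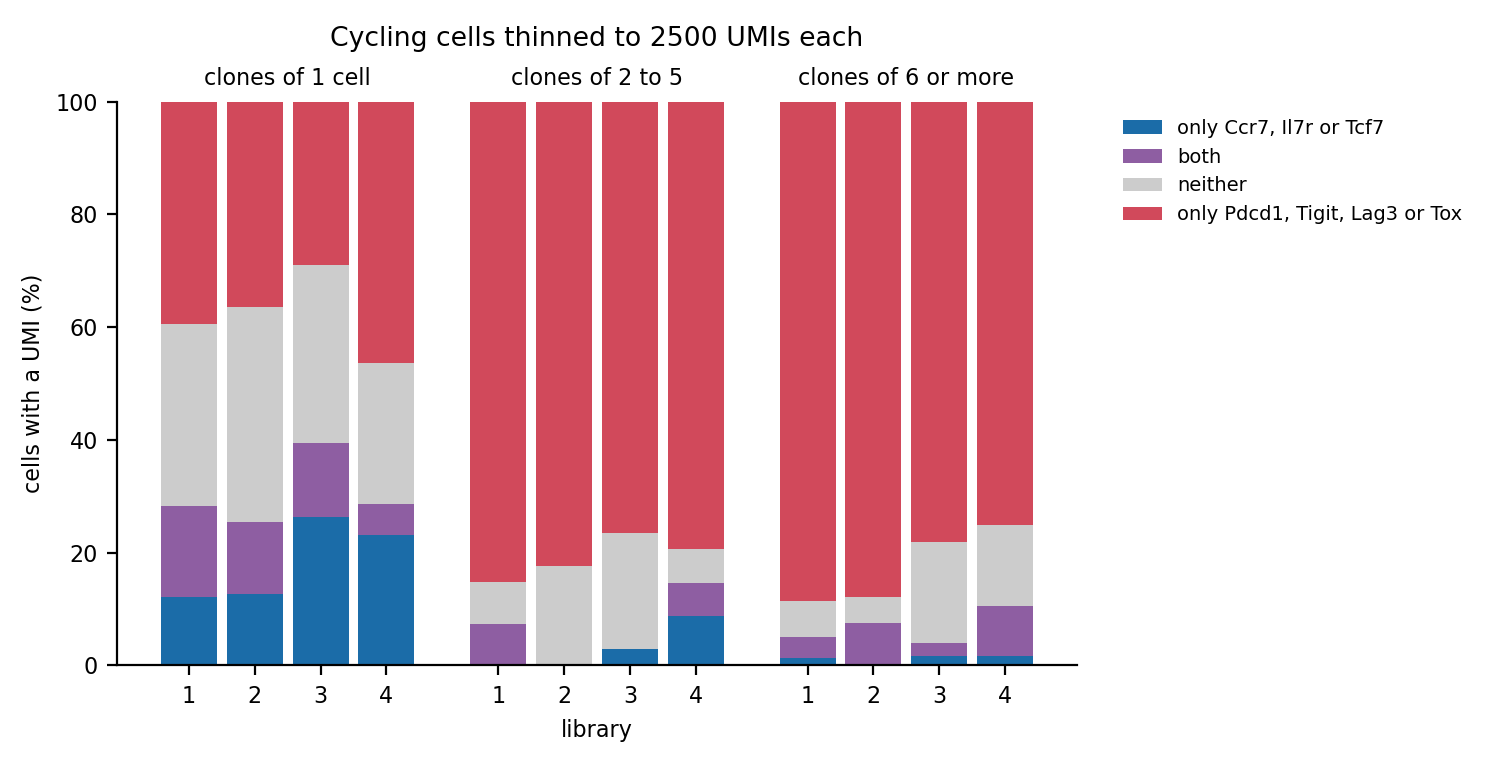
Share of cycling cells in percent (y axis) with a UMI of only memory genes, of both sets, of neither or of only exhaustion genes, after thinning to 2500 UMIs, for each library (x axis) and clone size class. The part with only exhaustion genes takes 28.9% to 46.4% of the single class and 75.1% to 88.7% of the expanded class.

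The expanded clones were not alike among themselves. Of the 79 clones of a library with cycling cells, 21 had at least 10 of them, and 11 of the 21 shared a TRB chain with another of them in their library. In 21 of 21, Pdcd1, Gzmk and S100a4 were above and Ccr7, Il7r, Tcf7, Satb1, Klra7, Klrb1c and Fcer1g below the single cells of their library. Tigit, Lag3, Tox, Tox2 and Cxcr6 were above in 20 of 21. Havcr2 was above in 16 of 21, with up to 159 CPM in 1 clone. Gzma ranged from 19.4 to 2418 CPM and was above in 7 of 21, Gzmb from 176 to 2212 CPM and above in 9, and Mki67 from 167 to 4490.4 CPM and above in 7. The leading clone of library 3 (Trbv26), with 44 cycling cells of 75, had 120.1 CPM of Pdcd1 and 84.5 of Lag3, where the leading clones of libraries 1, 2 and 4 had 417, 358 and 378 CPM of Pdcd1 and 311, 534 and 342 of Lag3. It had 1689.6 CPM of Gzmb, 1718 of Ly6c2 and 2394 of Mki67 against 435, 67.6 and 809.5 CPM in the leading clone of library 1. The second call of library 3, which shares no chain with the leading one, had 1723 CPM of Ly6c2, and the fifth, which carries the TRB chain of the leading call, had 2524 CPM. Clones of 1 library share its treatment and several share a chain, so this is a description of clones and carries no test.

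Outside the cycling cluster the classes also lay apart. Of the 89 expanded clones, 79 (88.8%, 80.3% to 94.5%) had at least 1 cycling cell, as did 31.5% of the 295 clones of 2 to 5 cells and 5.11% of the 4853 single cells, and a larger clone has more chances to do so. Of all expanded cells 25.8% were cycling, from 15.9% to 37.5% over libraries, and of all single cells 3.38% to 7.13%. The cells of the 79 clones lay in the transitory effector (Teff) cluster (35.9%), the cycling cluster (27.1%), TIM-3+ Tex (20.02%) and TIGIT+ Teff (7.98%), with 0.134% in Tcm and 0.490% in Tn. The single cells of all clusters were in Tcm (51.1%) and Tn (22.9%) for the most part. TCR loci took 0.307% to 0.336% of the UMIs of single and 0.428% to 0.486% of those of expanded cycling cells. A TCR call itself needs such UMIs, so no test was made.

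The transitory Teff cluster (Transitionary_effector_cells), which held 866 expanded and 368 single cells, served to ask whether the ratio was particular to cycling cells. In 16 sums of both clusters, with 7481 genes tested, the log2 ratio of expanded to single differed between the clusters for 11 genes (0.147% of genes tested by edgeR), and 416 had an unadjusted p below 0.05. Both ratios come from the same libraries, and clones with cells in both clusters enter both. Pdcd1 had 1.63 in cycling cells and 1.37 in transitory Teff cells, Tox 1.37 in cycling cells and 1.40 in transitory Teff cells and Tigit 1.40 in cycling cells and 1.46 in transitory Teff cells, and none of these differences passed the test (edgeR adjusted p = 0.939, 0.997 and 0.987). The SE of the difference was 0.21, 0.18 and 0.20 on the log2 scale. Il7r fell in both clusters, by -2.95 in cycling and -2.42 in transitory Teff cells, as did Satb1, by -3.14 and -2.18. Their differences did not pass the test either (edgeR adjusted p = 0.927 and 0.741). Tcf7 had -2.45 in cycling cells and -0.64 in transitory Teff cells, a difference of -1.82 ± 0.33 (SE; edgeR adjusted p = 0.0121). Its levels in the transitory cluster were 186, 152, 176 and 153 CPM in single and 114, 102, 49.03 and 143 CPM in expanded cells, all above those of expanded cycling cells. Tnfsf14 (-2.51 ± 0.42 SE, edgeR adjusted p = 0.0085), Aff3 (-2.42 ± 0.50 SE, edgeR adjusted p = 0.0332), Klra3 (-2.09 ± 0.39 SE, edgeR adjusted p = 0.0144), Samd3 (-1.62 ± 0.27 SE, edgeR adjusted p = 0.0085), Tespa1 (-1.40 ± 0.25 SE, edgeR adjusted p = 0.0121), Rflnb, Fos, Dusp1 and Ltb also had the lower ratio in cycling cells. The cycling ratios of Tnfsf14 and Aff3 rest on 24 and 17 UMIs in all expanded cycling cells. Zeb2, a transcription factor of terminal effector cells, had 15.7, 8.34, 19.1 and 13.8 CPM in single and 35.2, 21.9, 57.7 and 15.2 CPM in expanded cycling cells, and 65.7, 33.95, 65.6 and 60.9 against 40.3, 31.6, 46.99 and 19.2 CPM in the transitory cluster. It was the 1 gene of 11 with the higher ratio in cycling cells, 1.83 ± 0.35 (SE; edgeR adjusted p = 0.0179). The count was 0 without library 1, without library 4 and in cells thinned to 2500 UMIs (edgeR, with 275, 300 and 195 genes at an unadjusted p below 0.05), 2 in cells of exactly 1 TRA and 1 TRB, 3 with a minimum of 30 UMIs, and 22 without library 3. Of the 409 genes called in cycling cells and tested here, 385 (94.1%) had the same sign in transitory Teff cells. The share of all genes with the same sign was not computed. In transitory Teff cells 146 of the 409 were also called with the same sign, where 213 of all 7481 genes were called (2.85%). The median absolute log2 ratio of the 409 was 0.84 in cycling and 0.50 in transitory Teff cells, a description in which the choice of genes favors the first.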

How the data were processed

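The 4 libraries were made with the 10x Genomics 5′ v2 chemistry from sorted CD8+ T cells, with a TCR library each. Per the methods of the study, the authors processed reads with cellranger (Cell Ranger 7.00 and mm10 per the submitters' processing notes), brought the libraries to similar depth by downsampling reads, and filtered cells on UMIs (2500 to 25000), on mitochondrial RNA (below 15%) and on transcripts of Cd3e or Cd3g and of Cd8a. No doublet step is stated and none was added here. Leiden clusters (Monocle3) and their names are those deposited by the authors, and TCR chains were combined per cell with scRepertoire. The deposited values are raw UMI counts per gene and cell, and a fraction of mitochondrial UMIs per cell, printed here only within the cell filter. All sources give the library as a number from 1 to 4, so no library was assigned to a treatment, and 0 columns of values per sample were left unused.

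UMIs were summed per library and clone size class over all genes but the 166 of the TCR loci. Genes with at least 10 UMIs in at least 4 of 8 sums were tested with the quasi-likelihood test of edgeR 4.0.16 (R 4.3.3, limma 3.58.1) after TMM scaling, with library and class as terms, and called at a Benjamini-Hochberg adjusted p below 0.05. The difference between clusters was tested with the same model on 16 sums, with at least 10 UMIs in at least 8, with library and cluster as a joint block. DESeq2 1.42.0 was an alternative. The script was checked on simulated counts. Shares of cells are given with exact Clopper-Pearson 95% intervals, and cells were thinned to 2500 UMIs with a fixed seed in Python 3.11.15 with numpy 2.4.6, scipy 1.17.1 and pandas 2.3.3, and drawn with matplotlib 3.10.9. Of 17561 genes, 17534 received a symbol from GENCODE M21 (GRCm38). CDR3 nucleotides were aligned to the ends of the germline V and J genes of that build, and not to D genes.

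Named genes were the 15 largest changes in each direction among called genes with the same sign in 4 of 4 libraries, every called gene of the lists, the genes the study names for these data, and the 5 smallest p of the difference test, and Mki67, Mcm5 and the other uncalled genes were added after their values were seen. A pair of list genes is not reported here and was left out of the lists, their counts and the sets of cells. The members and the lists were chosen with earlier results of these data known. Alternatives changed the scaling, the minimum, the block, the definition of a clone, the depth and the cells, and left out each library in turn. The library is the only replicate number of the samples and is a term of the main model, since the classes of 1 library share its mice, capture and depth.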

Additional observations from a re-analysis of the deposited data

Results flagged for a closer look

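Among 117 named genes, the within-library log2 ratio of expanded to single cycling cells was far from the other 3 libraries in 1 library for 8 genes, and chance alone flags about 1 in 20. Library 3 stood apart for 5 of them, with log2 ratios of 0.94 for Ctsd, a lysosomal protease, 1.54 for Fasl, the death ligand, 0.63 for Cxcr3, 0.35 for the interferon-induced GTPase Igtp and -6.11 for Nsg2. The last rests on a level near 0 in the expanded cells of that library. Library 2 stood apart for Ncf1, a subunit of the phagocyte oxidase, with 2.53, and for Junb, with -0.039, and library 1 for S100a4, with 0.69.

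The ratio of expanded to single cells differed between the cycling and the transitory Teff cluster for 11 genes by the difference test of edgeR. The log2 difference, cycling minus transitory, was 1.83 for Zeb2. It was below 0 for the other 10 genes, with -2.51 for Tnfsf14, -2.42 for Aff3, -2.09 for Klra3, -1.90 for Rflnb, -1.82 for Tcf7, -1.62 for Samd3, -1.40 for Tespa1, -1.14 for Fos, -1.07 for Dusp1 and -0.71 for Ltb.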

How the results depend on the processing

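The count of called genes (430, of which 208 higher and 222 lower) changed with the setting, and the direction of the calls hardly did. It was 187 (76 higher, 111 lower) with DESeq2, 651 (316 and 335) with no minimum, 278 (145 and 133) with a minimum of 30 UMIs, and 147 (55 and 92) with no library block, the fit that drops the pairing of the classes by library. Cells thinned to 2500 UMIs gave 76 (35 and 41), cells of exactly 1 TRA and 1 TRB 253 (134 and 119), and leaving out 1 library 192 to 587 (80 to 267 higher, 112 to 320 lower). Settings chosen after seeing the data gave 43 (23 and 20) for exactly 1 TRA and 1 TRB with thinning, 58 (20 and 38) for cells below the median depth of their library, and 278 (129 and 149) without clonotypes found in another library. The fit with no minimum tested 14251 genes, and DESeq2 and the fit with no block tested the same 7958 as the main fit. The other settings used fewer genes, fewer cells or both. The fit without library 3, with fewer cells, tested 8152 genes and called 587. The cause of the changed counts was not tested for any setting. Of the calls still tested, 1, 4 and 2 turned direction under thinning, under 1 chain each with thinning and below the median depth, and 0 in the other alternatives.

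Among the named genes, the log2 fold change of Gzmb turned from 0.08 to -0.31 without library 3 (-0.31 to 0.36 when 1 library was left out), -0.24 in thinned cells, -0.060 without cells with transcripts of other cells, -0.30 with 1 chain each and thinning, and -0.71 below the median depth. That of Gzma turned to 0.11 without library 2 (-0.76 to 0.11) and 0.14 with at most 3 cells of a clone, and that of Cd226 to -0.18 without library 3 (-0.18 to 0.57). Bst2 turned to 0.020 and Ccnb2 to -0.029 with 1 chain each and thinning, and Cenpa to -0.0086 below the median depth. Of the other values of named genes over all alternatives, 2100 kept their side of the threshold, 496 lost the call in the same direction and 1 gained it.

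The 11 genes of the difference test became 3 (0 higher, 3 lower) with a minimum of 30 UMIs, 0 (0 and 0) in thinned cells, 2 (0 and 2) with 1 chain each, a setting chosen after seeing the data, and 0 to 22 (0 to 3 higher, 0 to 19 lower) when 1 library was left out. The cause was not tested. The share of expanded clones with a cycling cell, 88.8%, is 25.8% when cells are the denominator. Depth limits genes near the minimum of 10 UMIs, most of all in library 3, whose single cells held 470603 UMIs.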

Other observations

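The use of TCR V genes in the cycling cells is a description, since it is what the classes were built on. In single cells the leading Trbv gene took 17.8% to 21.1% of the UMIs of all Trbv genes and was another one in each library (Trbv12-2, Trbv15, Trbv13-1 and Trbv17). In expanded cells Trbv1 took 62.4% of Trbv UMIs in library 1, Trbv17 35.3% in library 2, Trbv26 35.6% in library 3 and Trbv15 24.4% in library 4. In libraries 1 to 3 this was the V gene of the clone with the most cycling cells, and in library 4 it was not. The 3 calls with the most cycling cells took 43.7%, 51.5%, 60.2% and 37.0% of the expanded class.

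The cells of the expanded clones with cycling members were spread differently over the other clusters of each library. TIM-3+ Tex held 27.4%, 16.9%, 2.92% and 20.1% of them in libraries 1 to 4, and TIGIT+ Teff 9.35%, 1.32%, 25.6% and 2.03%. Library 3, with the lowest share in TIM-3+ Tex and the highest in TIGIT+ Teff, was also the one with the highest Gzmb, Ly6c2 and Cxcr3 in its expanded cycling cells. With 1 library of each number and no treatment known for it, this was not tested.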
